A study of Mus musculus with 18 samples.

Results

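Fatty acid oxidation and ketogenesis was followed through 36 genes, the members of a fixed list, in the livers of mice given carbon tetrachloride (CCl4), with or without Pien Tze Huang (PTH), and in control livers. The members were found by their symbols among the 54752 genes of the count table, where all 36 were present and all 36 passed the filter on low counts. By role they were 3 regulators (Ppara, Ppargc1a, Pdk4), 6 genes of fatty acid activation and carnitine transport, 14 of mitochondrial beta-oxidation, 7 of peroxisomal beta-oxidation and its carnitine step, 4 acyl-CoA thioesterases and pantetheinase (Acot2, Acot3, Acot4, Vnn1), and 2 ketone body enzymes (Acat1, Bdh1). By place in the cell, 21 were counted as mitochondrial and 9 as peroxisomal, and 6 (Ppara, Ppargc1a, Acsl1, Slc27a2, Crat, Vnn1) were put in neither because their products act elsewhere or in several places.

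The study modelled liver cancer with CCl4, which becomes a hepatocyte toxin once cytochrome P450 enzymes have split it into a radical. All animals were male C57BL/6 mice, 6 weeks old at the start, 45 in all and 15 per group, and liver RNA of 6 mice per group was sequenced after removal of ribosomal RNA in week 22. The CCl4_PTH group had CCl4 by intraperitoneal injection 2 times per week with daily PTH, a traditional Chinese medicine that the labels spell both PTH and PZH, by gavage. The CCl4 group had the same injections with water by gavage. The control group had intraperitoneal olive oil with water by gavage. The sources used here do not say whether the sampled tissue contained tumour, or what time separated sampling from the last meal and the last injection.

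Long-chain fatty acids are activated to acyl-CoA, passed into mitochondria as carnitine esters, and shortened there by rounds of dehydrogenation, hydration, dehydrogenation and thiolysis, while peroxisomes shorten very long and branched chains with a parallel set of enzymes. The acetyl-CoA formed in liver mitochondria can be condensed to ketone bodies, which the liver exports and other tissues burn during fasting. PPAR-alpha, the nuclear receptor encoded by Ppara, is activated by fatty acids and drives many of these genes in rodent liver, and hepatocytes are the main site of the pathway in this organ.

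The promoters of 4 members and 1 shared promoter are printed, and no link between these sequences and the results below was tested. Ehhadh and Acaa1b encode peroxisomal enzymes whose fold changes under PTH pointed in opposite directions, neither of them called. Acadm encodes a mitochondrial enzyme and had a fold change near 0 under PTH, and Acot2 is the member that fell under PTH. The shared stretch lies between Hadha and Hadhb, head-to-head genes for the subunits of a single enzyme. Each printed stretch is the RefSeq sequence (GRCm38.p6) of the 250 bases before the gene's start, or the whole gap for Hadha and Hadhb. It is written 5′ to 3′ on the stated strand. Capitals mark the GC box GGGCGG, the CCAAT box and the nuclear receptor motif AGGTCA on either strand. On the opposite strand the GC box reads CCGCCC, the CCAAT box reads ATTGG, and the nuclear receptor motif reads TGACCT.
Ehhadh, chr16:21787835-21788084, minus strand: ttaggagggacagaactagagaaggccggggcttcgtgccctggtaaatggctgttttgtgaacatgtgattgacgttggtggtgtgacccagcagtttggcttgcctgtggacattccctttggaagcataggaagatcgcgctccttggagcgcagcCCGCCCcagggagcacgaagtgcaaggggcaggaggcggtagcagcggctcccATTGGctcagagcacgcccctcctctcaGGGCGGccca
Acaa1b, chr9:119157094-119157343, minus strand: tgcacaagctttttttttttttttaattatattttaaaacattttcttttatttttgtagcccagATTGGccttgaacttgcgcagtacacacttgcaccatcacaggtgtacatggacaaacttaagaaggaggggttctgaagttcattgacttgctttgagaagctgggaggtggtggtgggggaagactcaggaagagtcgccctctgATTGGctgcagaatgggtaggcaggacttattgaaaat
Acadm, chr3:153944644-153944893, minus strand: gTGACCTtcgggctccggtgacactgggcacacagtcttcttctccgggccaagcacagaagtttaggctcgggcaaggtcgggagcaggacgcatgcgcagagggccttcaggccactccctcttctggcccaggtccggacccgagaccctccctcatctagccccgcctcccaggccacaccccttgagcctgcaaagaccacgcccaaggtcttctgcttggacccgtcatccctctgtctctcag
Acot2, chr12:83987611-83987860, plus strand: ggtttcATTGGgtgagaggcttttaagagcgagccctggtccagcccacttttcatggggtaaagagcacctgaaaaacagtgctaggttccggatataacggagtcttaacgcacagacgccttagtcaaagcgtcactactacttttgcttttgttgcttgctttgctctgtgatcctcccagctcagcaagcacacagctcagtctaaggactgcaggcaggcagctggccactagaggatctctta
Hadha-Hadhb, chr5:30155163-30155247, plus strand: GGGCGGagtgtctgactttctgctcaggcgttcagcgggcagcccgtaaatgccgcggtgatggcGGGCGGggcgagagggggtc
Hadha and Hadhb thus start 85 bases apart in the annotation and share a stretch with 2 GC boxes, whereas the Acaa1b window held 2 CCAAT boxes and no GC box. RefSeq windows of 300 bases (250 before to 50 after the start) were matched for 30 of the 36 members, which gave 33 windows. GGGCGG lay in 21 of them (63.6%, against 35.7% of 32851 windows of all genes), CCAAT in 16 (48.5% against 37.4%) and AGGTCA in 8 (24.2% against 16.3%). The TATA box TATAAA lay in 1 window (3.03% against 13.6%), and the median GC content was 60.7% in member windows and 52.7% in all windows. Of the direct repeat of AGGTCA with 1 base between the copies, the arrangement known for PPAR-alpha binding, exact matches lay in 0 member windows and in 0.0396% of all windows. These matches describe letters in short windows and say nothing about binding.

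Each library held 67.2 M to 119 M counts, of which 30.6% to 55.8% fell on 357 ribosomal RNA loci, and CCl4_PTH libraries were on the whole deeper (76.9 M to 119 M) than CCl4 (67.2 M to 83.8 M) and control libraries (77.2 M to 86.6 M). Levels below are in CPM (counts brought to 1 library size by edgeR with TMM factors), a change is called when the Benjamini-Hochberg adjusted p of edgeR's quasi-likelihood test over 21840 genes is under 0.05, and every error after ± on a log2 fold change is its standard error (SE, 6 livers per group). Libraries are named by group and label number. Among the controls, libraries 1 and 8 stood apart from the other 4: both were below all other controls for 27 of the 36 members and above them for 1 member (Echs1). In the same libraries all 12 genes of a lipogenesis list were above the other controls, for example Fasn, the fatty acid synthase, with 508 and 1120 CPM against 61.9 to 135 CPM. Control 1 had 32.5% of its counts on ribosomal RNA loci, against 44.6% to 55.8% in the other controls. Its TMM factor was 1.034, against 0.652 to 0.7981 in the other controls. Control 8 had 46% and 0.7981. Library 1 of the CCl4_PTH group was the lowest of its group for 14 members and the highest for 12. Its ribosomal share of 30.6% was the lowest of all libraries, and its TMM factor was 1.049. The part of these differences in the members' levels was not tested. All 3 libraries were kept, and some of the counts and calls named below that changed without them are also given without them.

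Under CCl4 the pathway was lower at nearly every step. Of the 36 members, 30 fell, 1 (Pdk4) rose and 5 (Ppargc1a, Cpt1a, Crot, Acot2, Acot3) were not called. Over all genes tested, 21.2% were called lower and 26.3% higher, and 47.4% were called in either direction. The median log2 fold change of the members was -0.98, beside 0.05 over all genes tested, and 34 of 36 members lay below that all-gene median. For 19 members every CCl4 liver was below every control liver, against 11.3% of all genes, and for Pdk4 every CCl4 liver was above every control liver, against 14.8% of all genes. Without controls 1 and 8, 33 members were lower and 1 higher, which included all 31 calls made with them. With unscaled library sizes, which moved the all-gene median to 0.63, 18 members were lower, and the members' median log2 fold change relative to that of all genes was -1.06, beside -1.03 with TMM.

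**Figure D1:**
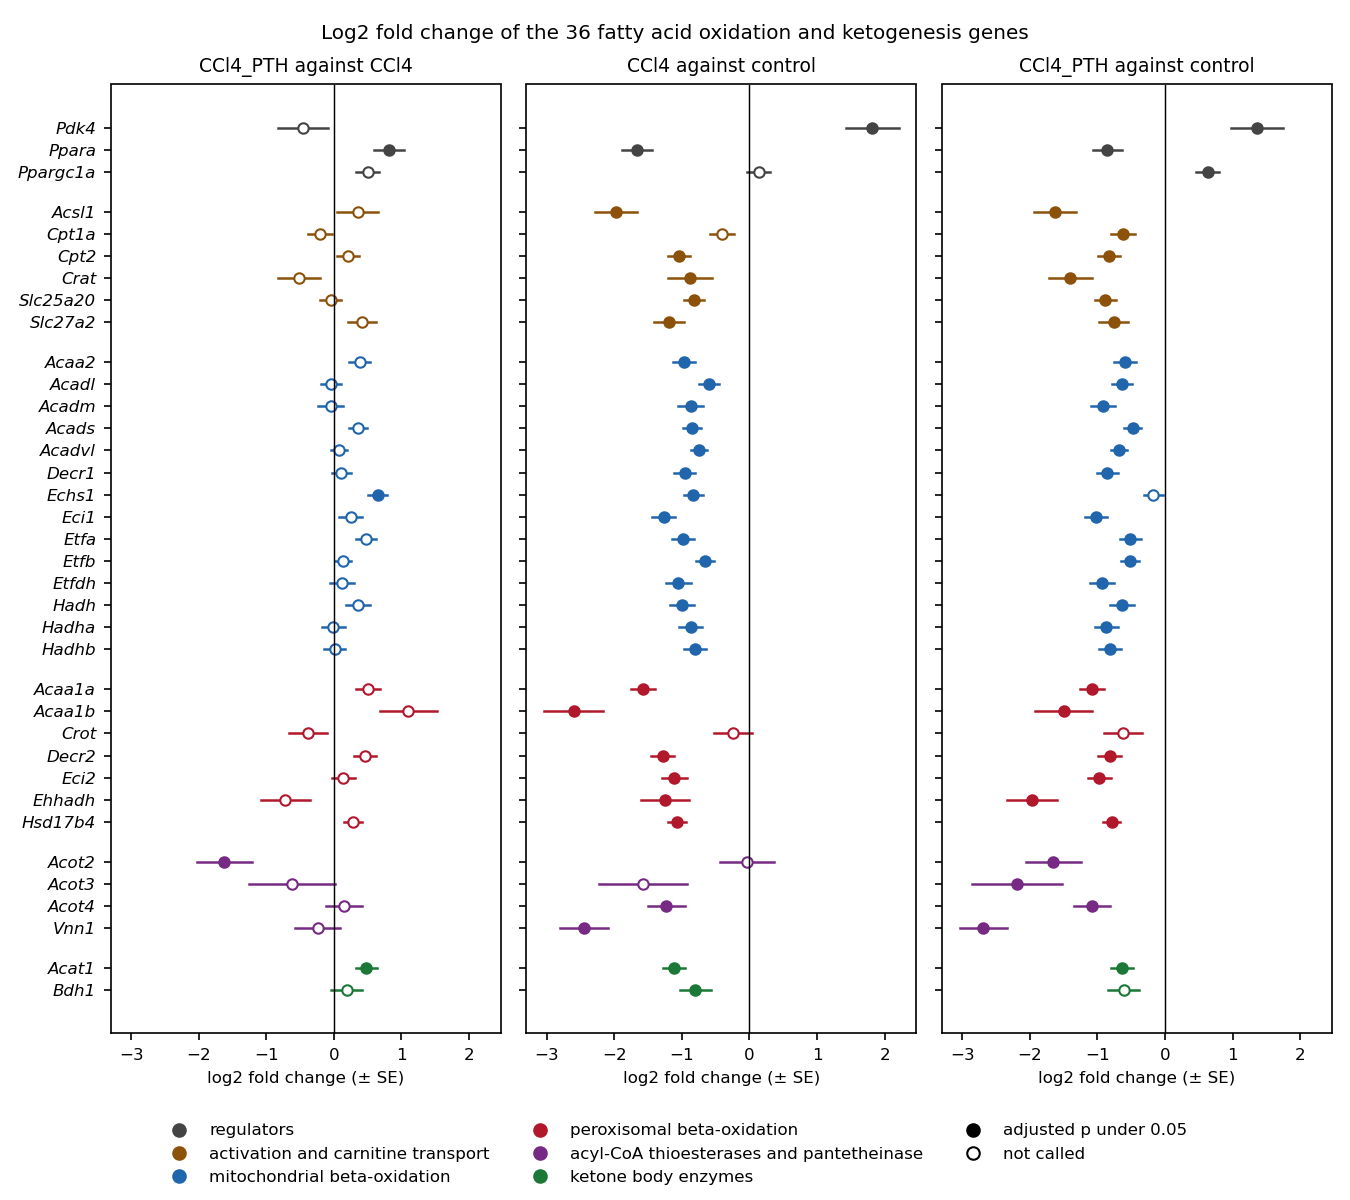
Log2 fold change of each of the 36 members, grouped by role, in CCl4_PTH against CCl4 (left), CCl4 against control (middle) and CCl4_PTH against control (right). Bars are the SE, filled points are called at an adjusted p under 0.05, and the members sit mostly left of 0 against control (30 lower for CCl4, 31 lower for CCl4_PTH) but around 0 between the CCl4_PTH and CCl4 groups (3 higher, 1 lower).

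The regulators did not share a direction. Ppara (GRCm38 chr15:85734983-85802819), the receptor gene itself, stood at 49.8 to 149 CPM in CCl4_PTH livers (median 108), at 39.6 to 81.1 CPM in CCl4 livers (median 63.4) and at 173 to 207 CPM in control livers (median 195). No CCl4 or CCl4_PTH liver reached the lowest control, and controls 1 and 8 (173 and 207 CPM) did not stand below the rest here. Under CCl4 it was 3.16-fold lower (log2 fold change -1.66 ± 0.22, adjusted p = 7.67e-06). Pdk4, the kinase that shuts off pyruvate dehydrogenase and so spares glucose while fat is burned, was the member that rose. It ran from 4.36 to 22.1 CPM in CCl4_PTH livers (median 6.67), from 6.41 to 19.2 CPM in CCl4 livers (median 11.5) and from 2.41 to 5.94 CPM in control livers (median 3.09). Its CCl4 livers were all above its controls, a 3.54-fold rise (1.82 ± 0.39, adjusted p = 0.000887). Ppargc1a, a coactivator of PPAR-alpha and of mitochondrial gene programmes, held 7.7 to 16.8 CPM in CCl4_PTH livers (median 9.75), 5.46 to 9.72 CPM in CCl4 livers (median 7.33) and 6.23 to 7.5 CPM in control livers (median 6.59). The CCl4 and control ranges overlapped, and no change was called (0.14 ± 0.17, adjusted p = 0.518).

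Among the genes of fatty acid activation and carnitine transport, 5 of 6 fell under CCl4, with a median log2 fold change of -0.96. Acsl1, the main long-chain acyl-CoA synthetase of liver, had 222 to 582 CPM in CCl4_PTH livers (median 429), 157 to 587 CPM in CCl4 livers (median 258) and 832 to 1630 CPM in control livers (median 1490). Every control was above every other liver, and under CCl4 the gene was 3.96-fold lower (-1.98 ± 0.31, adjusted p = 4.45e-05). Cpt2, the inner-membrane carnitine palmitoyltransferase that regenerates acyl-CoA, had 47.9 to 62.1 CPM in CCl4_PTH livers (median 53.6), 35.6 to 60.1 CPM in CCl4 livers (median 46.3) and 62 to 120 CPM in control livers (median 109), with control 1 the lowest control. It fell 2.05-fold under CCl4 (-1.04 ± 0.16, adjusted p = 3.83e-05). Slc27a2, a fatty acid transport protein with very-long-chain acyl-CoA synthetase activity, fell as well (-1.19 ± 0.22, adjusted p = 0.000185), and so did Slc25a20, the carnitine-acylcarnitine carrier (-0.82 ± 0.15, adjusted p = 0.000241).

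Cpt1a, the outer-membrane carnitine palmitoyltransferase at which entry into mitochondria is controlled, was the transport gene without a call. It stood at 249 to 410 CPM in CCl4_PTH livers (median 280), 282 to 460 CPM in CCl4 livers (median 338) and 347 to 595 CPM in control livers (median 501). The CCl4 and control ranges overlapped through controls 1 and 8 (347 and 367 CPM), while the other 4 controls had 473 to 595 CPM. Its log2 fold change was -0.41 ± 0.18 (adjusted p = 0.0637), and without controls 1 and 8 it was -0.62 with a call (adjusted p = 0.00853). Crat, carnitine acetyltransferase, was called lower (-0.88 ± 0.32, adjusted p = 0.029) on ranges of 21.9 to 38.2 CPM in CCl4 livers and 18.5 to 74 CPM in control livers, control 1 being below every CCl4 liver. That call was lost without control 2 (adjusted p = 0.0519), CCl4 2 (adjusted p = 0.0511) or CCl4 4 (adjusted p = 0.0628).

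All 14 genes of mitochondrial beta-oxidation fell under CCl4, within a narrow band of log2 fold changes from -1.27 to -0.6 (median -0.87). The acyl-CoA dehydrogenases open each round, and the medium-chain one, Acadm, had 123 to 167 CPM in CCl4_PTH livers (median 145), 100 to 204 CPM in CCl4 livers (median 144) and 167 to 325 CPM in control livers (median 315). Its CCl4 range reached above control 1 (167 CPM), yet the other controls but for control 8 (205 CPM) had 315 CPM or more, and the fall was called (-0.87 ± 0.18, adjusted p = 0.000713). Acads, the short-chain dehydrogenase, had 44.1 to 59.1 CPM in CCl4_PTH livers (median 56.7), 27.6 to 50.4 CPM in CCl4 livers (median 45.6) and 70.4 to 81.5 CPM in control livers (median 75.1), with no overlap of either with control. It was 1.8-fold lower under CCl4 (-0.85 ± 0.13, adjusted p = 2.42e-05). The long-chain Acadl fell least of the 14 (-0.6 ± 0.15, adjusted p = 0.00257), and with unscaled library sizes its log2 fold change was 0.00 (adjusted p = 0.997). Acadvl, the very-long-chain enzyme, was also lower (-0.75 ± 0.12, adjusted p = 5.93e-05).

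Hadha and Hadhb, which encode the alpha and beta subunits of the mitochondrial trifunctional protein and share the short promoter printed above, moved alike. Hadha had 145 to 187 CPM in CCl4_PTH livers (median 160), 126 to 195 CPM in CCl4 livers (median 172) and 191 to 372 CPM in control livers (median 340), so that CCl4 and control livers met only at control 1 (191 CPM). Under CCl4 Hadha fell by 0.87 on the log2 scale (SE 0.17, adjusted p = 0.000314) and Hadhb fell by 0.81 (SE 0.16, adjusted p = 0.000301). The log2 ratio of Hadha to Hadhb had a median of 1.4 in CCl4_PTH livers, 1.42 in CCl4 livers and 1.48 in control livers, within an overall range of 1.19 to 1.59. Without a stated strand setting, Hadha counts may include reads of the antisense neighbour Garem2.

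The auxiliary enzymes that handle double bonds at awkward positions fell too. Eci1, the mitochondrial enoyl-CoA isomerase, had 24.8 to 41.4 CPM in CCl4_PTH livers (median 37.4), 21.1 to 44.3 CPM in CCl4 livers (median 29.7) and 50.5 to 86.3 CPM in control livers (median 80.4). All controls were above all other livers, and the fall under CCl4 was 2.41-fold (-1.27 ± 0.17, adjusted p = 9.5e-06). Decr1, the mitochondrial dienoyl-CoA reductase, had 64 to 81.1 CPM in CCl4_PTH livers (median 69.2), 48.8 to 80.1 CPM in CCl4 livers (median 65.7) and 90.3 to 152 CPM in control livers (median 141), again without overlap (-0.96 ± 0.15, adjusted p = 3.15e-05). Echs1, the short-chain enoyl-CoA hydratase, had 61.2 to 88.4 CPM in CCl4_PTH livers (median 74.7), 33.6 to 71 CPM in CCl4 livers (median 45.9) and 79.8 to 93.1 CPM in control livers (median 85.1). Its CCl4 livers were below its controls (-0.83 ± 0.14, adjusted p = 0.000109), while its CCl4_PTH livers overlapped both. Acaa2, the thiolase that ends each round, fell by 0.97 on the log2 scale (SE 0.16, adjusted p = 6.11e-05), and Hadh, the short-chain hydroxyacyl-CoA dehydrogenase, fell by 1.0 (SE 0.18, adjusted p = 0.000156). Electrons leave the dehydrogenases through the flavoprotein subunits Etfa and Etfb and the oxidoreductase Etfdh, which were lower by log2 fold changes of -0.98 ± 0.16, -0.66 ± 0.13 and -1.05 ± 0.19, with adjusted p from 4.51e-05 to 0.000259.

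**Figure D2:**
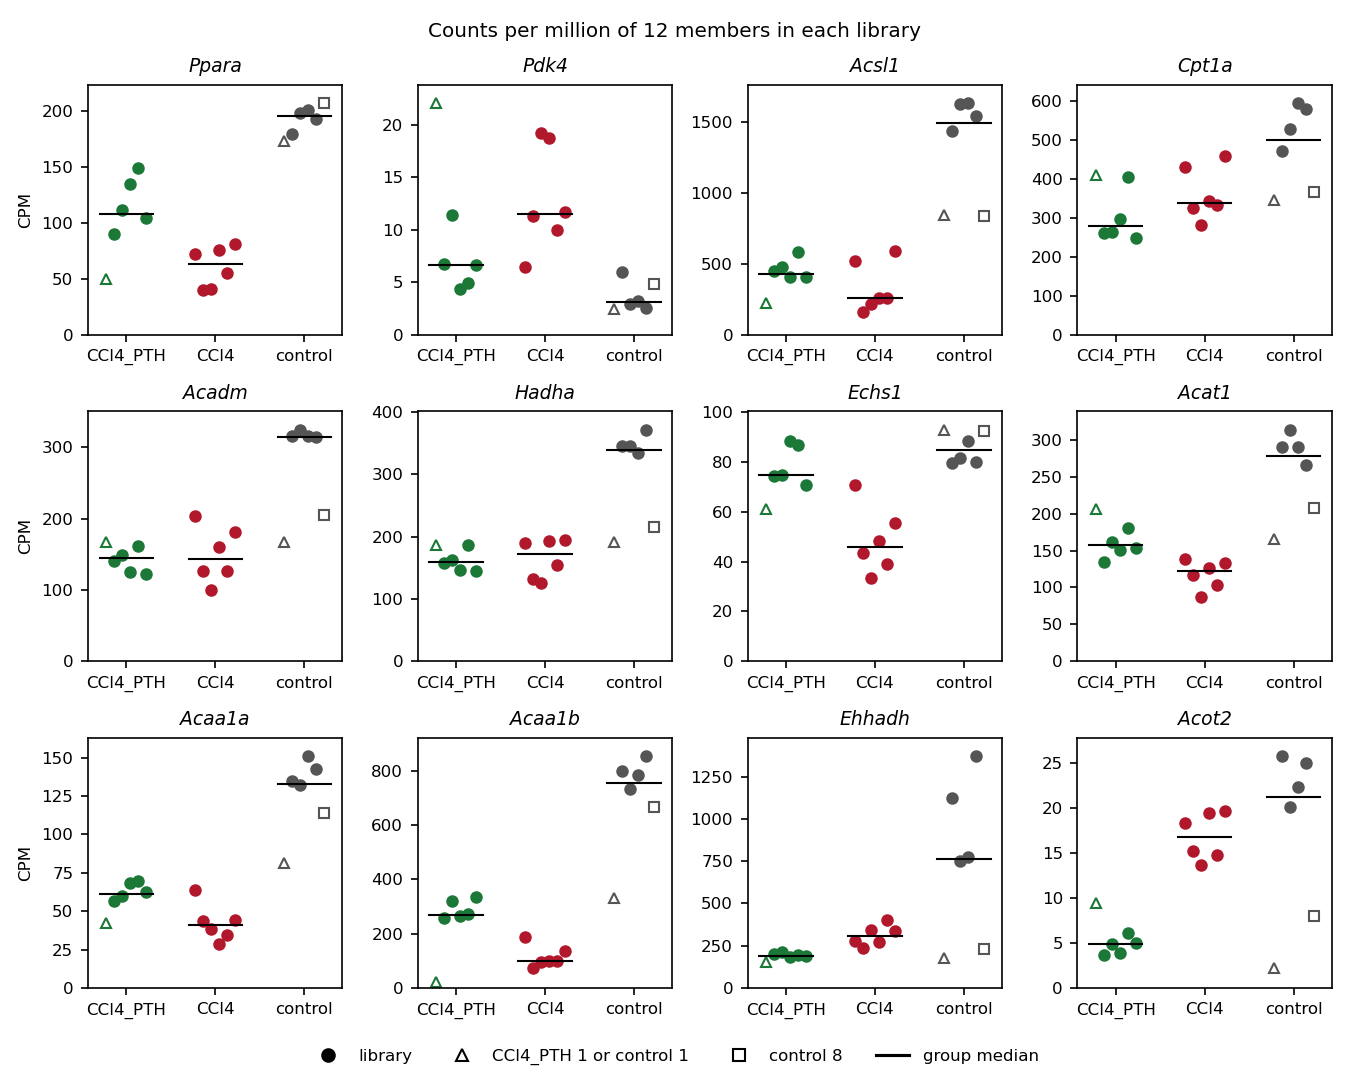
CPM (linear axis from 0) of 12 members in each library, CCl4_PTH left, CCl4 in the middle and control right, with 1 mark per liver and a line at the group median. Triangles are CCl4_PTH 1 and control 1, and squares are control 8. Ppara had all controls (173 to 207 CPM) above all other livers, Pdk4 had its highest group median in CCl4 livers (11.5 CPM), and Acot2 had its lowest group median in CCl4_PTH livers (4.9 CPM).

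Peroxisomal beta-oxidation fell in 6 of 7 genes under CCl4, with a median log2 fold change of -1.25. Acaa1a and Acaa1b encode peroxisomal thiolases that are close paralogs, so reads may be shared between them. Acaa1a had 42.5 to 69.5 CPM in CCl4_PTH livers (median 61), 28.3 to 64.1 CPM in CCl4 livers (median 41.3) and 81.7 to 151 CPM in control livers (median 133), with all controls above all other livers. It fell 2.99-fold under CCl4 (-1.58 ± 0.18, adjusted p = 1.61e-06), the smallest adjusted p of the members. Acaa1b had 20.7 to 334 CPM in CCl4_PTH livers (median 269), 72.9 to 188 CPM in CCl4 livers (median 98.6) and 331 to 855 CPM in control livers (median 758). Every CCl4 liver was below every control, and the fall of 6.06-fold (-2.6 ± 0.44, adjusted p = 0.000106) was the steepest of the 36 members. Overlapping genes on the other strand, Myd88 for Acaa1a and Dlec1 for Acaa1b, could add reads.

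Ehhadh, the peroxisomal bifunctional enzyme that hydrates and dehydrogenates enoyl-CoA and also serves dicarboxylic acids, varied most among the controls. It had 153 to 213 CPM in CCl4_PTH livers (median 190), 236 to 401 CPM in CCl4 livers (median 309) and 178 to 1370 CPM in control livers (median 763). Controls 1 and 8 (178 and 230 CPM) were below every CCl4 liver, and the other 4 controls (751 to 1370 CPM) were above every CCl4 liver. Its fall under CCl4 was called (-1.25 ± 0.36, adjusted p = 0.00787). Hsd17b4, the other multifunctional peroxisomal enzyme, had 174 to 209 CPM in CCl4_PTH livers (median 195), 128 to 188 CPM in CCl4 livers (median 157) and 234 to 382 CPM in control livers (median 365). Unlike Ehhadh it kept its controls above all other livers, and it fell 2.1-fold under CCl4 (-1.07 ± 0.13, adjusted p = 3.55e-06).

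Decr2, the peroxisomal dienoyl-CoA reductase, had 77 to 134 CPM in CCl4_PTH livers (median 109), 62.5 to 109 CPM in CCl4 livers (median 72.2) and 138 to 226 CPM in control livers (median 209). Neither group given CCl4 reached the controls, and under CCl4 alone it was 2.43-fold lower (-1.28 ± 0.17, adjusted p = 6.43e-06). Eci2, an enoyl-CoA isomerase counted here as peroxisomal, fell by 1.11 on the log2 scale (SE 0.18, adjusted p = 4.52e-05). Crot, the peroxisomal carnitine octanoyltransferase that hands shortened chains on to mitochondria, was not called (-0.24 ± 0.28, adjusted p = 0.5). It had 248 to 547 CPM in CCl4 livers (median 478), while controls 1 and 8 had 209 and 242 CPM and the other 4 controls 651 to 683 CPM. Without controls 1 and 8 its log2 fold change was -0.64 and passed (adjusted p = 0.0157).

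The thioesterases release free fatty acid and coenzyme A from acyl-CoA, and Vnn1 is the pantetheinase that yields the precursor of coenzyme A, a strong PPAR-alpha target in mouse liver. Of these 4 genes, 2 fell under CCl4. Vnn1 had 9.06 to 15.4 CPM in CCl4_PTH livers (median 10.3), 8.69 to 17 CPM in CCl4 livers (median 13) and 15.9 to 109 CPM in control livers (median 85.7). Its fall of 5.46-fold (-2.45 ± 0.35, adjusted p = 2.33e-05) was the second steepest of the members, with a single control (1, 15.9 CPM) inside the CCl4 range. Acot4 was lower (-1.23 ± 0.27, adjusted p = 0.00108), and Acot3 was not called (-1.57 ± 0.65, adjusted p = 0.0561). Acot3 passed in 10 of 29 alternatives, among them the fit without controls 1 and 8 (-1.87, adjusted p = 0.0359) and DESeq2 (adjusted p = 0.0346). Acot2, a mitochondrial thioesterase, had 3.6 to 9.44 CPM in CCl4_PTH livers (median 4.9), 13.6 to 19.6 CPM in CCl4 livers (median 16.7) and 2.25 to 25.7 CPM in control livers (median 21.2). Controls 1 and 8 (2.25 and 7.92 CPM) lay below every CCl4 liver and the other 4 (20.1 to 25.7 CPM) above them, and no change was called (-0.03 ± 0.4, adjusted p = 0.957). Its log2 fold change was -0.51 without controls 1 and 8 (adjusted p = 0.0572), and without these and CCl4_PTH 1 it was -0.51 with a call (adjusted p = 0.00969). Acot2, Acot3 and Acot4 belong to a cluster of near-identical genes, so their reads may be divided among copies.

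Both ketone body members fell under CCl4. Acat1, the mitochondrial acetoacetyl-CoA thiolase that starts ketogenesis, had 135 to 206 CPM in CCl4_PTH livers (median 157), 86.9 to 139 CPM in CCl4 livers (median 122) and 166 to 314 CPM in control livers (median 278). Its CCl4 livers were all below its controls, 2.17-fold on average (-1.12 ± 0.16, adjusted p = 1.34e-05). Bdh1, which interconverts acetoacetate and beta-hydroxybutyrate, had 41.2 to 136 CPM in CCl4_PTH livers (median 109), 56.8 to 117 CPM in CCl4 livers (median 94.1) and 96.2 to 187 CPM in control livers (median 167). The ranges overlapped at control 1 (96.2 CPM), and the fall was called (-0.8 ± 0.23, adjusted p = 0.00851).

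The question for PTH was which of these genes differed between livers that had the same CCl4. Few did: 3 members were higher with PTH (Echs1, Ppara and Acat1), 1 was lower (Acot2), and 32 were not called. Over all genes tested, 7.1% were called higher, 4.95% lower and 12.1% in either direction, so the members' 4 calls were close to that share. Their median log2 fold change was 0.14, beside -0.03 over all genes. At an unadjusted p under 0.05, 11 members were higher and 1 lower, where 5972 of the 21840 genes tested passed in either direction. Both groups here had CCl4, the CCl4 group serves both this comparison and the one above, and the values are therefore set side by side without a test between comparisons.

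Echs1, whose values are given above, was 1.57-fold higher in CCl4_PTH than in CCl4 livers (0.65 ± 0.14, adjusted p = 0.0075), with 1 CCl4 liver (number 1, 71 CPM) inside the CCl4_PTH range. Ppara was 1.76-fold higher (0.81 ± 0.22, adjusted p = 0.0202), and its groups overlapped through CCl4_PTH 1 (49.8 CPM). The Ppara call was lost without CCl4 4 (adjusted p = 0.0547), CCl4_PTH 6 (adjusted p = 0.0523) or CCl4_PTH 7 (adjusted p = 0.0606). Acat1 was 1.4-fold higher (0.48 ± 0.16, adjusted p = 0.0491), at the edge of the threshold, and lost its call in 14 of 29 alternatives. Acot2 went the other way, with every CCl4_PTH liver (3.6 to 9.44 CPM) below every CCl4 liver (13.6 to 19.6 CPM), a 3.07-fold fall (-1.62 ± 0.41, adjusted p = 0.0173).

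Among the genes without a call, Ehhadh and Acaa1b pointed in opposite directions. Every CCl4_PTH liver had less Ehhadh (153 to 213 CPM) than every CCl4 liver (236 to 401 CPM), with a log2 fold change of -0.72 ± 0.36 (adjusted p = 0.201). Without controls 1 and 8 the same fold change passed (-0.7, adjusted p = 0.0139), and it also passed when only the CCl4_PTH and CCl4 livers were fitted (-0.69, adjusted p = 0.0152). Ehhadh and Acot2 were the 2 members whose CCl4_PTH livers all lay below the CCl4 livers, against 1.86% of all genes, and no member had its CCl4_PTH livers all above, against 2.2%. Acaa1b was at 257 to 334 CPM in 5 CCl4_PTH livers and at 20.7 CPM in CCl4_PTH 1, against 72.9 to 188 CPM in CCl4 livers. Its log2 fold change was 1.1 ± 0.42 without a call (adjusted p = 0.0967), and 1.36 with a call when CCl4_PTH 1 was left out (adjusted p = 0.000793).

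The central mitochondrial enzymes had fold changes near 0 in this comparison, with errors that allow small changes in either direction. Acadm had a log2 fold change of -0.05 ± 0.18 (adjusted p = 0.889), Hadha of -0.01 ± 0.17 (adjusted p = 0.986) and Hadhb of 0.01 ± 0.16 (adjusted p = 0.986). Of the 14 mitochondrial beta-oxidation genes, 1 was called higher (Echs1), and Acads (0.36 ± 0.13, adjusted p = 0.0642) and Etfa (0.47 ± 0.15, adjusted p = 0.0522) were nearest to a call among the rest. None of the 7 peroxisomal beta-oxidation genes was called by edgeR. An unadjusted p under 0.05 held for 4 of them, and for 5972 of the 21840 genes tested. DESeq2 and limma voom each called 3 higher, and over all genes 2021 and 2198 higher. None of the 6 activation and transport genes was called by edgeR, 0 had an unadjusted p under 0.05, DESeq2 called 0 and voom called 1 lower. Acaa1a (0.5 ± 0.18, adjusted p = 0.0705), Cpt1a (-0.21 ± 0.18, adjusted p = 0.5), Vnn1 (-0.24 ± 0.33, adjusted p = 0.698), Bdh1 (0.19 ± 0.23, adjusted p = 0.656), Pdk4 (-0.46 ± 0.37, adjusted p = 0.466) and Ppargc1a (0.5 ± 0.17, adjusted p = 0.0568) were not called. Acaa1a was called higher without controls 1 and 8.

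The number of members called higher with PTH depended on single livers. It was 9 without CCl4 1 (Acaa1a, Acads, Acat1, Decr2, Echs1, Etfa, Hadh, Ppara and Ppargc1a), 7 without CCl4 8 and 7 without CCl4_PTH 1 (Acaa1a, Acaa1b, Acads, Decr2, Echs1, Etfa and Ppara, with Acat1 no longer called), and it was 1 without CCl4 4 or CCl4_PTH 7 (Echs1) and 2 without CCl4_PTH 6 (Echs1 and Ppargc1a). Without controls 1 and 8, 4 members were higher and 2 lower, and without CCl4_PTH 1 as well, 8 were higher and 3 lower. DESeq2 called 9 members higher, and voom with quality weights called 10 higher and 2 lower. Calls over all genes shifted too, from 1551 higher with all 18 libraries. They were 2030 without CCl4 1, 1887 without CCl4 8 and 2286 without CCl4_PTH 1. They were 941 without CCl4 4, 934 without CCl4_PTH 7 and 1082 without CCl4_PTH 6. DESeq2 called 2021 genes higher and voom 2198.

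Set against control livers, CCl4_PTH livers still had most of the pathway below control. Of the 36 members, 31 were lower, 2 (Pdk4 and Ppargc1a) higher and 3 (Echs1, Crot, Bdh1) not called, and the median log2 fold change was -0.83 beside 0.04 over all genes. Over all genes tested, 10.3% were called lower, 17.4% higher and 27.7% in either direction. For 17 members every CCl4_PTH liver was below every control, against 4.68% of all genes, and for Ppargc1a every CCl4_PTH liver was above every control, against 9.8%. By role, 6 of 6 activation and transport genes, 13 of 14 mitochondrial and 6 of 7 peroxisomal beta-oxidation genes, 4 of 4 thioesterase and pantetheinase genes and 1 of 2 ketone body enzymes were lower. Without controls 1 and 8, 33 members were lower and 2 higher, and without CCl4_PTH 1 as well, 32 were lower and 0 higher.

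Vnn1 stood farthest from control, 6.47-fold lower in CCl4_PTH livers (-2.69 ± 0.35, adjusted p = 3.99e-05), with its highest CCl4_PTH liver (15.4 CPM) just under control 1 (15.9 CPM). Acaa1a was 2.11-fold lower (-1.08 ± 0.18, adjusted p = 0.00024), Hsd17b4 1.73-fold (-0.79 ± 0.13, adjusted p = 0.000258) and Eci1 2.03-fold (-1.02 ± 0.17, adjusted p = 0.000284), each with no overlap of the groups. Ehhadh was 3.9-fold lower (-1.96 ± 0.37, adjusted p = 0.00072), although control 1 (178 CPM) lay inside the CCl4_PTH range. Ppara remained 1.8-fold lower than in control (-0.85 ± 0.22, adjusted p = 0.00699), and Cpt1a was 1.53-fold lower (-0.62 ± 0.18, adjusted p = 0.0144).

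The 2 members above control were regulators. Ppargc1a was 1.55-fold higher (0.63 ± 0.17, adjusted p = 0.0082), highest in CCl4_PTH 1 (16.8 CPM), and Pdk4 was 2.57-fold higher (1.36 ± 0.38, adjusted p = 0.0139), also highest in CCl4_PTH 1 (22.1 CPM). Neither was called without that library and controls 1 and 8 (adjusted p = 0.0597 for Ppargc1a and 0.0762 for Pdk4). Echs1 had a log2 fold change of -0.17 ± 0.14 from control (adjusted p = 0.386), and Bdh1 of -0.61 ± 0.23 (adjusted p = 0.0584). Bdh1 was called lower without controls 1 and 8 (-0.81, adjusted p = 0.023), as was Crot (-1.0, adjusted p = 0.00173, against -0.62 and 0.106 with them). Etfa was lower by a log2 fold change of -0.51 (adjusted p = 0.0185), a call lost without controls 1 and 8 and CCl4_PTH 1 (-0.43, adjusted p = 0.0667). Acadm (-0.92 ± 0.18, adjusted p = 0.00115), Hadha (-0.87 ± 0.17, adjusted p = 0.000844), Acaa1b (-1.5 ± 0.42, adjusted p = 0.0135), Acot2 (-1.65 ± 0.41, adjusted p = 0.00668) and Acat1 (-0.64 ± 0.16, adjusted p = 0.00526) were lower.

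By compartment, the peroxisomal members had the more negative median under CCl4. Of 9 peroxisomal members 7 were lower (median log2 fold change -1.25), and of 21 mitochondrial members 18 were lower and 1 higher (median -0.85). The peroxisomal minus mitochondrial difference in medians was -0.4 on the log2 scale, and -0.46 to -0.34 when any single library was left out. Without controls 1 and 8, 9 peroxisomal and 19 mitochondrial members were lower, and the difference was -0.46. In CCl4_PTH against CCl4 livers the medians were 0.15 for peroxisomal members and 0.12 for mitochondrial members. Of the peroxisomal members 0 were called by edgeR, 4 were at an unadjusted p under 0.05 and 3 were called by DESeq2 and by voom. Over all genes tested, 5972 of 21840 were at an unadjusted p under 0.05. Of the mitochondrial members 2 were higher and 1 lower. In CCl4_PTH against control livers 8 of 9 peroxisomal members were lower (median -1.08), and 18 of 21 mitochondrial members were lower and 1 higher (median -0.64). These medians are descriptions over members that were chosen with results of these data known, and no test of the difference between compartments was made. Genes outside the members, described below, had nearly equal medians under CCl4. The median was -1.02 for 16 other genes of peroxisomal oxidation and import and -1.0 for 20 other mitochondrial fatty acid enzymes. For 15 peroxisome biogenesis genes it was -0.77.

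**Figure D3:**
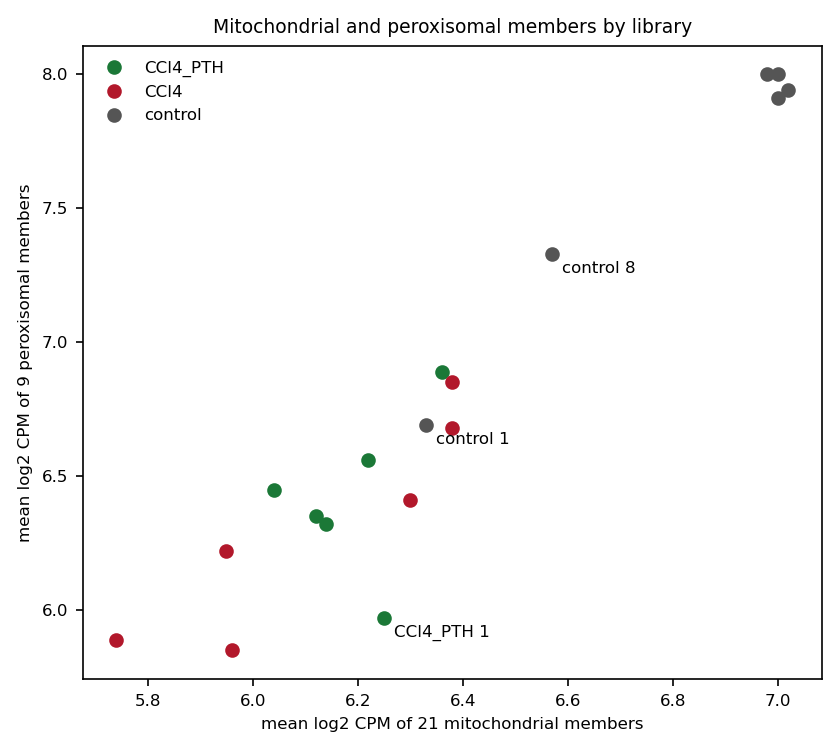
Mean log2 CPM of the 9 peroxisomal members (vertical axis) against that of the 21 mitochondrial members (horizontal axis), with 1 point per library. Controls 1 and 8 lie under the other 4 controls for both compartments, and the CCl4_PTH and CCl4 livers overlap for both.

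Per library, the mean log2 CPM of the peroxisomal members was 5.97 to 6.89 in CCl4_PTH livers (median 6.4), 5.85 to 6.85 in CCl4 livers (median 6.31) and 6.69 to 8.0 in control livers (median 7.93). For the mitochondrial members it was 6.04 to 6.36 in CCl4_PTH livers (median 6.18), 5.74 to 6.38 in CCl4 livers (median 6.13) and 6.33 to 7.02 in control livers (median 6.99). Control 1 fell inside or at the edge of the CCl4 range for both (6.69 peroxisomal, 6.33 mitochondrial), whereas the 4 controls other than 1 and 8 were tightly grouped, at 7.91 to 8.0 for peroxisomal and 6.98 to 7.02 for mitochondrial members. The peroxisomal minus mitochondrial difference in mean log2 CPM had a median of 0.28 in CCl4_PTH livers, 0.215 in CCl4 livers and 0.92 in control livers. CCl4_PTH 1 held the lowest such difference of all livers (-0.28).

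The members differed widely in how much they varied among the 6 control livers. The coefficient of variation (SD over mean of CPM) ran from 1.73% for Acaa2 to 64.1% for Ehhadh, with a median of 22.2%. Acaa2 (1.73%), Etfa (3.42%), Acads (5.06%), Ppara (6.85%), Ppargc1a (7.03%) and Echs1 (7.18%) were the flattest. Controls 1 and 8 were both below the other 4 controls for 16 of 21 mitochondrial and 7 of 9 peroxisomal members, and control 1 was the lowest control for 28 members. It was below the highest CCl4 liver for 16 members and below every CCl4 liver for 5 (Ehhadh, Crat, Crot, Pdk4 and Acot2). Pdk4 is in both counts because it rose under CCl4, and all its controls were below every CCl4 liver. Feeding state, clock time and other differences between these mice are not given in the labels, and their part was not tested.

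**Figure D4:**
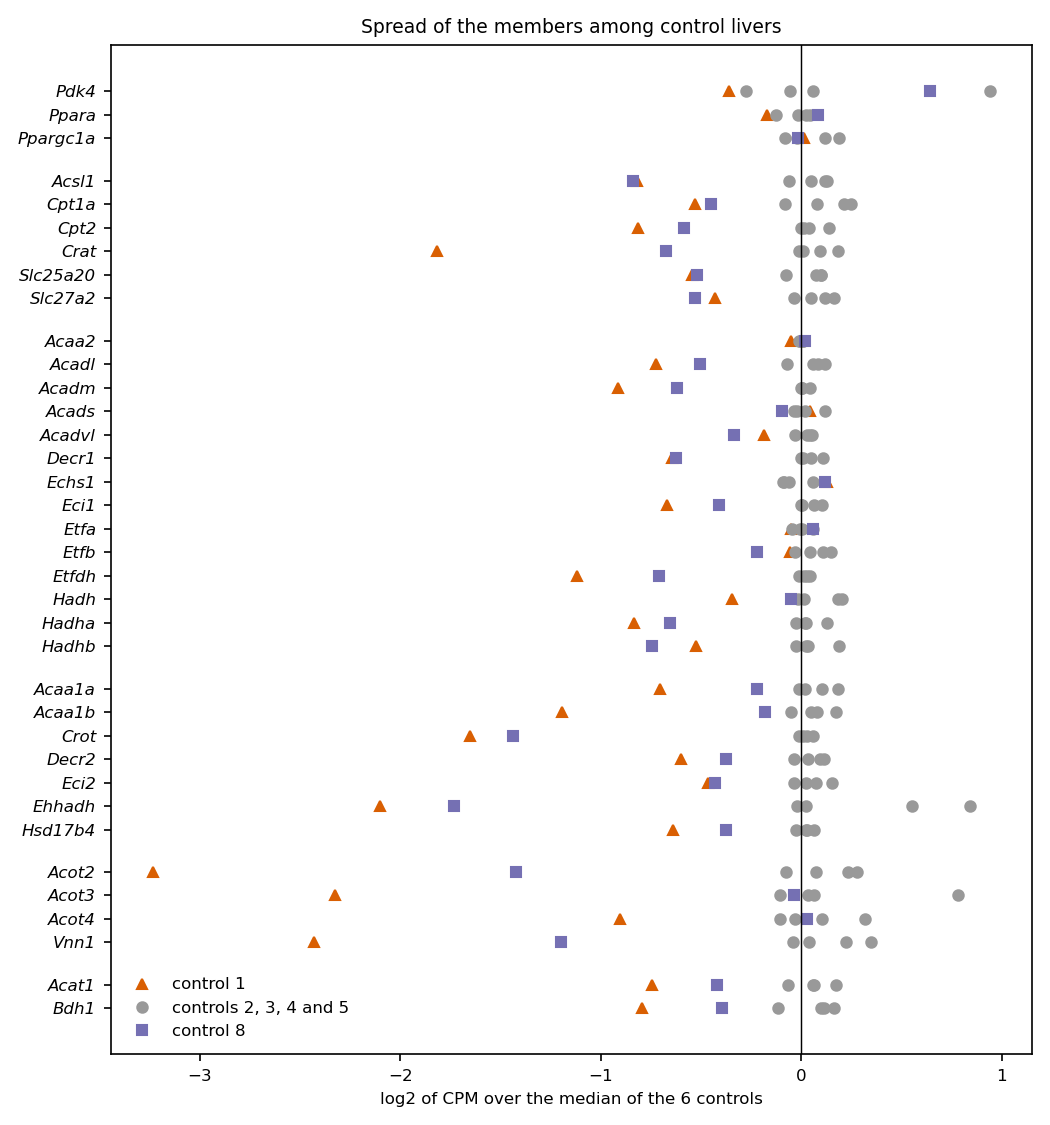
CPM of each member in the 6 control libraries as the log2 of its ratio to the median of the 6 controls, with members grouped by role. Triangles are control 1, squares control 8 and circles the other 4 controls. Control 1 and control 8 both fall below the other 4 controls for 27 of 36 members, far below for Acot2, Ehhadh, Crot and Vnn1, and sit with them for Acaa2, Etfa and Ppara.

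Levels of different genes were compared per kilobase of annotated exon. The exon length was merged over all annotated transcripts and can exceed that of the transcript expressed, which affects the order of genes. In CCl4_PTH livers the order began with Slc27a2 (174 CPM per kb), Acaa2 (166), Acaa1b (125) and Ehhadh (63.4). In CCl4 livers Slc27a2 (130 CPM per kb), Acaa2 (127), Ehhadh (104), Crot (80.3) and Acaa1b (58.5) led. Control livers had Acaa1b first (354 CPM per kb), then Slc27a2 (296), Acaa2 (250) and Ehhadh (247), and Pdk4 (1.04) and Ppargc1a (1.03) last. Acaa1b was thus above Ehhadh in CCl4_PTH livers (125 and 63.4 CPM per kb). In CCl4 livers it was below Ehhadh (58.5 and 104 CPM per kb), with Crot between them. The difference between these genes was not tested.

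Beyond the 36 members, 85 other genes of the pathway were read from lists of related enzymes, peroxisome biogenesis factors and regulators. Under CCl4, 63 of the 85 were lower and 5 higher, where 21.2% and 26.3% of all genes were, with a median log2 fold change of -0.92. With PTH, 29 of the 85 were higher and 3 lower than in CCl4 livers, where 7.1% and 4.95% of all genes were. Their median was 0.34. At an unadjusted p under 0.05, 44 were higher and 8 lower, where 5972 of the 21840 genes tested passed in either direction. That count of 29 was 19 without CCl4 7 or without CCl4_PTH 7 and 41 without CCl4 1. Without CCl4_PTH 1, 36 were higher and 9 lower, beside 2286 higher and 1568 lower over all genes. All-gene calls higher were 1018 without CCl4 7, 934 without CCl4_PTH 7 and 2030 without CCl4 1, beside 1551 with all libraries. Against control, 40 were lower and 3 higher in CCl4_PTH livers (median -0.42), where 10.3% and 17.4% of all genes were. The difference between members and other pathway genes was not tested.

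**Figure D5:**
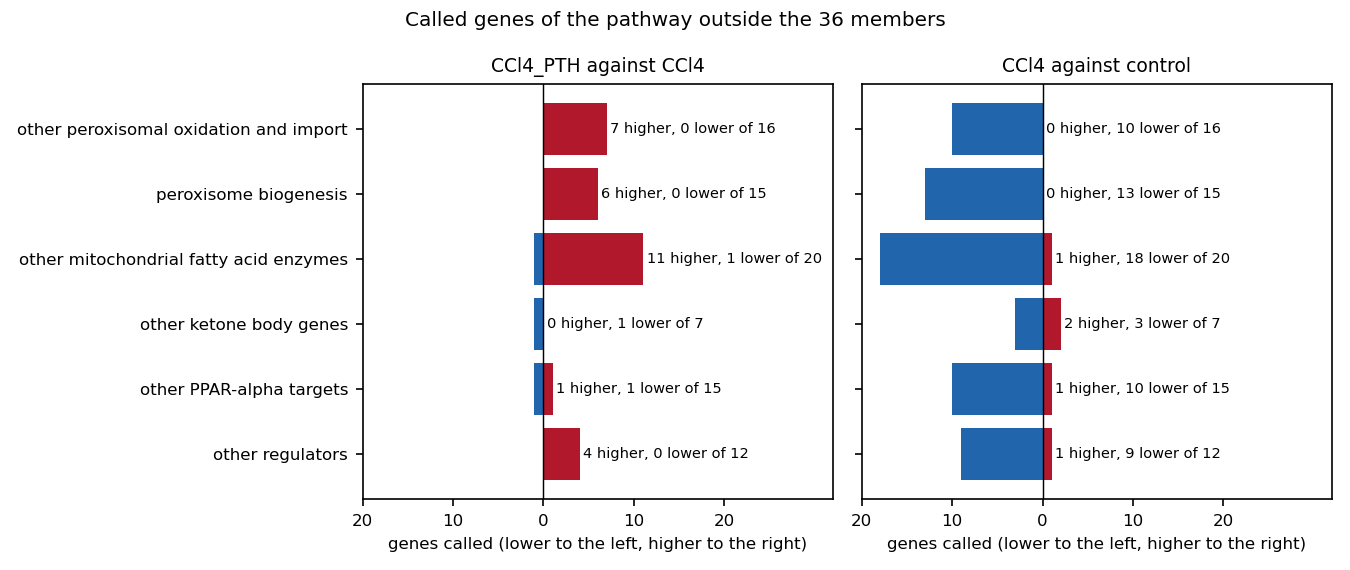
Number of other pathway genes called higher or lower in each role, for CCl4_PTH against CCl4 (left) and CCl4 against control (right). Bars to the left are genes called lower and bars to the right genes called higher. The largest count higher with PTH is for other mitochondrial fatty acid enzymes (11 of 20).

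Of the 16 other genes of peroxisomal oxidation and import, 7 were higher with PTH and 10 lower under CCl4. Scp2, which carries a peroxisomal thiolase and a sterol carrier domain, had 1130 to 1700 CPM in CCl4_PTH livers (median 1380), 514 to 918 CPM in CCl4 livers (median 727) and 1630 to 1780 CPM in control livers (median 1720). It was 1.93-fold higher with PTH (0.95 ± 0.15, adjusted p = 0.00125), with no overlap, and differed from control by -0.29 ± 0.15 without a call (adjusted p = 0.161).

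Nudt7, a peroxisomal hydrolase of coenzyme A, had 17.9 to 213 CPM in CCl4_PTH livers (median 131), 11.9 to 42.2 CPM in CCl4 livers (median 19.4) and 129 to 354 CPM in control livers (median 163). CCl4_PTH 1 (17.9 CPM) lay inside the CCl4 range and the other 5 (122 to 213 CPM) above it, and the rise with PTH was 5.55-fold (2.47 ± 0.44, adjusted p = 0.00281). Among 15 peroxisome biogenesis genes, 13 were lower under CCl4 and 6 higher with PTH. Pex5, the import receptor, had 48.5 to 60.6 CPM in CCl4_PTH livers (median 57.7), 33.6 to 47.7 CPM in CCl4 livers (median 41.8) and 74.1 to 85.2 CPM in control livers (median 79.7), in 3 ranges that did not overlap. It was 1.35-fold higher with PTH (0.43 ± 0.1, adjusted p = 0.00926) and 1.94-fold lower under CCl4 (-0.96 ± 0.1, adjusted p = 6.44e-07). Pex11a, a peroxisome division factor and PPAR-alpha target in mouse, was not called with PTH (-0.07 ± 0.18, adjusted p = 0.839). It had 17.3 to 30 CPM in CCl4_PTH livers (median 17.6), 18.9 to 23.9 CPM in CCl4 livers (median 20.2) and 38.7 to 86.8 CPM in control livers (median 71.9), and against control CCl4_PTH livers were 3.46-fold lower (-1.79 ± 0.18, adjusted p = 2.84e-06).

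Of 20 other mitochondrial fatty acid enzymes, a list that also holds the cytosolic Acot1, 18 were lower and 1 higher under CCl4, and 11 were higher and 1 lower with PTH. Mut, the methylmalonyl-CoA mutase that feeds odd-chain and amino acid carbon into the citric acid cycle, had 82.5 to 110 CPM in CCl4_PTH livers (median 93.6), 32.9 to 69.5 CPM in CCl4 livers (median 50.5) and 81.1 to 102 CPM in control livers (median 94.2). Its CCl4_PTH livers were all above its CCl4 livers (0.85 ± 0.15, adjusted p = 0.00192), and their log2 fold change from control was 0.03 ± 0.14 (adjusted p = 0.891). Acot9, a mitochondrial thioesterase, ran against the list: it had 3.08 to 5.41 CPM in CCl4_PTH livers (median 4.68), 6.31 to 13.6 CPM in CCl4 livers (median 8.37) and 1.35 to 2.97 CPM in control livers (median 1.86). It was 2.08-fold lower with PTH (-1.05 ± 0.21, adjusted p = 0.00441) and 4.72-fold higher under CCl4 (2.24 ± 0.22, adjusted p = 2.99e-07).

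Of the 7 other ketone body genes, 3 were lower and 2 (Oxct1 and Slc16a6) higher under CCl4, and 1 (Slc16a6) was lower with PTH. Oxct1, the transferase by which other tissues burn ketone bodies and which normal hepatocytes hardly express, had 6.07 to 12.1 CPM in CCl4_PTH livers (median 9.1), 6.97 to 19.1 CPM in CCl4 livers (median 11.8) and 1.62 to 3.57 CPM in control livers (median 2.48). It was 3.52-fold higher in CCl4_PTH than in control livers (1.82 ± 0.23, adjusted p = 2.24e-05) and 4.73-fold higher in CCl4 than in control livers (2.24 ± 0.24, adjusted p = 7.1e-07). Slc16a6, a monocarboxylate transporter linked to ketone body export, had 3.91 to 9.19 CPM in CCl4_PTH livers (median 4.96), 7.6 to 12.1 CPM in CCl4 livers (median 11.1) and 2.36 to 3.66 CPM in control livers (median 3.1). It was 1.88-fold lower with PTH (-0.91 ± 0.18, adjusted p = 0.00413) and 3.39-fold higher under CCl4 (1.76 ± 0.18, adjusted p = 5.82e-07).

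Among 15 other PPAR-alpha targets, 10 were lower and 1 higher under CCl4, and 1 was higher and 1 lower with PTH, with a median log2 fold change of -0.35 in CCl4_PTH against CCl4 livers. Without CCl4_PTH 1, 5 of these targets were lower with PTH. Over all genes, that fit called 1568 lower, beside 1081 with all libraries. Mgll, monoacylglycerol lipase, had 46.6 to 64.3 CPM in CCl4_PTH livers (median 55.8), 35.1 to 59.6 CPM in CCl4 livers (median 47.9) and 84.6 to 173 CPM in control livers (median 160). It was 2.56-fold lower in CCl4_PTH than in control livers (-1.36 ± 0.17, adjusted p = 2.18e-05). Of 12 other regulators, 9 were lower and 1 (Ppard) higher under CCl4, and 4 (Sirt3, Klf15, Foxo1 and Tfam) were higher with PTH. Controls 1 and 8 were both below the other 4 controls for 9 of the 15 targets.

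Markers of other cell types moved with the groups, and in bulk tissue fewer hepatocytes and less RNA per hepatocyte cannot be told apart. Of 12 hepatocyte markers, 7 were lower under CCl4 and 2 higher with PTH, and their summed level was 45400 to 76000 CPM in CCl4_PTH livers, 27800 to 64000 CPM in CCl4 livers and 57900 to 73500 CPM in control livers. Macrophage markers rose in 8 of 9 under CCl4, and with PTH 1 was higher and 3 lower than under CCl4 alone, with sums of 260 to 545 CPM in CCl4_PTH livers, 361 to 962 CPM in CCl4 livers and 109 to 168 CPM in control livers. Stellate cell and fibroblast markers rose in 6 of 8 (331 to 801, 377 to 696 and 127 to 151 CPM, in the order CCl4_PTH, CCl4, control) and cholangiocyte markers in 5 of 5 (58.3 to 253, 90.8 to 173 and 11.9 to 26.4 CPM in that order). Lymphocyte markers rose in 6 of 6 and neutrophil markers in 4 of 4 tested. The neutrophil sum was 148 CPM in CCl4_PTH 1 and 4.5 to 12.3 CPM in the other CCl4_PTH livers. It was 6.45 to 70.6 CPM in CCl4 livers and 0.55 to 1.16 CPM in control livers. CCl4_PTH 1 also had the highest hepatocyte, stellate cell and cholangiocyte sums of its group, and the lowest macrophage and lymphocyte sums. Of 5 endothelial markers 3 were higher and 1 lower, and of 4 muscle markers 1 was tested and not called. Of 6 adipocyte markers 2 were tested, and under CCl4 1 was lower (log2 fold change -8.67) and 1 higher (2.06). With PTH 1 of them was lower than under CCl4 alone. Among the adipocyte markers not tested, Lep was at 0 in all 18 libraries and Adipoq in 17.

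Of 10 genes of general mitochondrial content, 8 were lower under CCl4 and 2 higher with PTH (7 without CCl4_PTH 1), with sums of 841 to 1360 CPM in CCl4_PTH livers, 766 to 1090 CPM in CCl4 livers and 1340 to 1480 CPM in control livers. Over all genes, 2286 were called higher with PTH without CCl4_PTH 1, beside 1551 with all libraries. More hepatocyte markers and mitochondrial content genes were thus lower than higher under CCl4, as for the members, and the part of cell composition and mitochondrial content in the members' changes was not tested.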

How the data were processed

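Liver RNA of 18 mice, 6 per group, was analysed from the deposited table of estimated counts per gene, which the authors made and which holds whole numbers for 54752 genes, not scaled to depth. The submitters' processing notes list the build GRCm38, the aligners Bowtie2 2.5.1 and HISAT2 2.2.1, the assembler StringTie 2.1.5, the trimmer cutadapt 4.2 and FastQC 0.11.9, without saying which served which step. The tool that counted reads and its strand setting are not given in the sources used here, so reads of overlapping or near-identical genes may be shared, which touches Hadha (Garem2), Acaa1a (Myd88), Acaa1b (Dlec1), Echs1 (Paox), Etfb (Gm45233, Mir7051), Etfdh (4930579G24Rik), Acadvl (Dvl2), Acsl1 (Gm45244), Slc27a2 (Gm26697), Crat (Gm16323, Dolpp1), Eci2 (Gm16984), Crot (Gm37153, Gm27941), Bdh1 (Gm15743), and Acot3 and Acot4 (Gm49366, 4732463B04Rik). Identifiers were matched to GENCODE M21 (54723 matched, 29 did not) for coordinates and exon lengths.

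Counts were filtered with filterByExpr (minimum count 10, 21840 genes), scaled with TMM and tested in R 4.3.3 by the robust quasi-likelihood F test of edgeR 4.0.16, in 1 fit of the 3 groups and without a block. Benjamini-Hochberg adjustment ran over all genes tested, and the threshold was 0.05. The SE of a log2 fold change is its size divided by the square root of F. Alternatives used DESeq2 1.42.0 and limma 3.58.1, and tables and figures used pandas 2.3.3 and matplotlib 3.10.9 under Python 3.11.15. The fit was tested on simulated counts with known changes. All 45 pairs of replicates differed by more than sampling noise (chi-square per gene of 50.8 or more). This value kept the ribosomal RNA loci and used no TMM factors, so it cannot tell whether libraries came from different animals. Each of the 18 libraries was counted as 1 animal. Counting error is small at these depths, and the errors given come from the spread between mice.

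Members and lists were chosen with earlier results of these data known. Values per group are printed for 12 set members, for up to 10, 8 and 4 members with the smallest p among those called in CCl4 against control, CCl4_PTH against CCl4 (where 4 were called) and CCl4_PTH against control, and for the 3 other pathway genes per comparison with the smallest p. Some genes this rule took are not reported here. Acsl1, Crot and Crat were added after their values were seen. Mean log2 CPM per library used a pseudocount of 0.01 CPM. The study's small RNA and circular RNA libraries were not analysed here.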

Additional observations from a re-analysis of the deposited data

Results flagged for a closer look

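In 9 of 108 groups of 6 libraries (36 members in 3 groups), a single library stood apart from the other 5 by Dixon's criterion (gap to the nearest library over the range), where chance gives about 1 in 20. Library 1 of the CCl4_PTH group accounted for 5 of them. It was high for Ppargc1a (16.8 CPM, against 7.7 to 10.8 CPM in the other 5) and for Crat (43.7 CPM, against 11 to 19.1 CPM). It was low for Acaa1b (20.7 CPM, against 257 to 334 CPM), Eci1 (24.8 CPM, against 35.9 to 41.4 CPM) and Etfa (42.5 CPM, against 64.5 to 74.2 CPM).

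Library 7 of the CCl4_PTH group was high for the neighbouring thioesterase genes Acot3 (20 CPM, against 2.46 to 7.97 CPM) and Acot4 (61.9 CPM, against 30.7 to 40.5 CPM). Library 8 of that group was low for Acadvl (121 CPM, against 153 to 161 CPM). Control 1 was low for Acaa1b (331 CPM, against 668 to 855 CPM in the other 5 controls).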

How the results depend on the processing

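Leaving out any single library gave 29 to 32 members lower in CCl4 against control and 31 to 33 in CCl4_PTH against control, with 18 to 19 mitochondrial and 7 to 8 peroxisomal members lower in CCl4 against control. In CCl4_PTH against CCl4 the same step gave 1 to 9 members higher and 1 to 2 lower, and 934 to 2286 genes higher over all. For the other pathway genes it gave 57 to 66 lower in CCl4 against control, 19 to 41 higher in CCl4_PTH against CCl4 and 33 to 44 lower in CCl4_PTH against control. The peroxisomal minus mitochondrial difference in median log2 fold change ran from -0.46 to -0.34 in CCl4 against control, from -0.04 to 0.14 in CCl4_PTH against CCl4 and from -0.44 to -0.36 in CCl4_PTH against control.

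Unscaled library sizes moved the all-gene median to 0.63 in CCl4 against control, to -0.13 in CCl4_PTH against CCl4 and to 0.51 in CCl4_PTH against control. They left 18 members lower in CCl4 against control, 8 of them mitochondrial, and 15 lower in CCl4_PTH against control, and gave other pathway counts of 32 lower in CCl4 against control, 17 higher in CCl4_PTH against CCl4 and 12 lower in CCl4_PTH against control. Acadl turned to 0.00 (adjusted p = 0.997) in CCl4 against control. The number of members higher in CCl4_PTH against CCl4 was 9 with DESeq2, 10 with voom, 5 with a filter of 1 CPM on average and 8 without controls 1 and 8 and CCl4_PTH 1. Over all genes the same fits called 2021, 2198, 1625 and 2412 higher, in that order. Members lower in CCl4_PTH against CCl4 numbered 2 with voom, 2 without controls 1 and 8, 2 with only the 2 groups fitted and 3 without controls 1 and 8 and CCl4_PTH 1, and fitting only the 2 groups left 19 other pathway genes higher. The cause of these shifts was not tested.

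No shared deviation of same-numbered mice was seen: of 13 pairs of same-numbered libraries, 0 had a correlation of deviations over 0.1 (range -0.209 to 0.0833), and 0 libraries correlated best with their own number. The labels state no pairing, and these correlations cannot exclude one, since they would show only a pairing that moved many genes together. With the number as a replicate block, 0 members were higher and 0 lower in CCl4_PTH against CCl4, where 84 genes were called over all, 0 other pathway genes were higher, and in CCl4_PTH against control 20 members and 25 other pathway genes were lower. In all, 29 alternatives were run. Precision rests on 6 mice per group rather than on depth, since every member passed the filter on low counts.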

Other observations

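Genes of fat synthesis went with the libraries that stood apart. Of 12 lipogenesis genes, 7 were lower in CCl4 than in control livers and 4 were higher in CCl4_PTH than in CCl4 livers, and 1 was lower in CCl4_PTH than in control livers. Over all genes tested, 21.2%, 7.1% and 10.3% were called in these directions, in that order. With controls 1 and 8 left out, 2 were lower and 1 higher in CCl4 than in control livers, 8 were higher in CCl4_PTH than in CCl4 livers, and 6 were higher and 0 lower in CCl4_PTH than in control livers. Of the 22771 genes tested in that fit, 4616 were lower and 5355 higher in CCl4 than in control livers. In CCl4_PTH livers 1664 were higher than in CCl4 livers, and 3497 were higher and 2277 lower than in control livers. Their summed level ran from 658 to 8120 CPM in CCl4_PTH livers (median 6260), from 1840 to 4740 CPM in CCl4 livers (median 2530) and from 1490 to 16300 CPM in control livers (median 2230). CCl4_PTH 1 was the lowest of its group for 10 of the 12 genes, and controls 1 and 8 were above the other 4 controls for all 12.

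Of 14 clock genes, 8 were lower and 2 higher in CCl4 than in control livers, 6 were higher in CCl4_PTH than in CCl4 livers, and 1 was higher in CCl4_PTH than in control livers (0 higher and 1 lower without controls 1 and 8). Their summed level was 363 to 620 CPM in CCl4_PTH livers, 217 to 422 CPM in CCl4 livers and 530 to 653 CPM in control livers. Of 7 fasting-response genes outside the members, 2 were lower and 1 higher in CCl4 than in control livers, and 2 were lower and 2 higher in CCl4_PTH than in control livers. Over all genes tested, 21.2% were lower and 26.3% higher in CCl4 than in control livers. In CCl4_PTH livers 7.1% were higher than in CCl4 livers, and 10.3% were lower and 17.4% higher than in control livers.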
